A study of Schmidtea mediterranea with 6 samples.

Results

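The transcripts described here encode xbp1, atf6 and the bip paralogues in the planarian Schmidtea mediterranea, which regrows missing tissue from its adult stem cells. They are 6 of the 26558 transcripts in the deposited table, taken by identifier from the gene tables of the study: xbp1 (dresden_comp415_c0_seq1), atf6 (dresden_comp3847_c0_seq1), bip-1 (dresden_comp511_c0_seq1), bip-2 (dresden_comp2648_c0_seq1), bip-3a (dresden_comp23368_c0_seq1) and bip-3b (dresden_comp19874_c0_seq1). RNA-seq had been performed on asexual animals at 72 hours of regeneration (72hR) after RNAi of cct3A, a subunit of the cytosolic chaperonin TRiC, or of gfp, which planarians do not carry, as the control. Each group had 3 libraries, and each library held the RNA of 5 regenerating trunks, although the labels also call the source whole planarian. The study calls these animals starved, controls included, and the sample labels give no feeding state. No colony or culture is named for the replicates, so the p-values describe the spread between pools of trunks.

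The unfolded protein response of the endoplasmic reticulum (ER) matches the folding capacity of this compartment to its load. In mammals and yeast, BiP, the HSP70 chaperone of the ER lumen, binds the luminal part of the ER stress sensors and leaves them when unfolded proteins accumulate. In mammals the sensor IRE1 then splices the xbp1 mRNA, which allows the active transcription factor XBP1 to be made, while ATF6, itself anchored in the ER membrane, is cut in the Golgi to free its transcription factor domain, and both raise the transcription of BiP and of other ER chaperones. A transcript level shows neither splicing of xbp1 nor cleavage of ATF6, and neither was measured in these libraries.

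Values are normalised TPM, a level per transcript length, so levels of different transcripts can be compared within a library. Changes are given on the log2 scale after adding 0.5 and were tested with limma across 18062 transcripts with a mean of at least 1, with p-values adjusted over all of them and a threshold of 0.05. The knockdown was visible in every library, since cct3A stood at 386, 387 and 403 normalised TPM in the gfp(RNAi) libraries and at 13.3, 13.4 and 14.0 in the cct3A(RNAi) libraries (log2 change -4.80, SE 0.035, adjusted p = 9.33e-10). The summed values of a library ran from 959963 to 999939 in the gfp(RNAi) group and from 1004960 to 1048450 in the cct3A(RNAi) group. Rescaling to equal sums moved the median log2 change of all tested transcripts from 0.0034 to -0.067. The first principal component, with 35.2% of the variance, separated the groups. In pools of whole trunks, fewer cells of a type and less RNA per cell cannot be told apart. Markers of planarian cell types were not analysed here, since the tables used pair no identifiers with them.

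xbp1 was the most abundant of the 6 transcripts, followed by bip-1, bip-2 and atf6, and this order was the same in each of the 6 libraries. In control animals xbp1 averaged 494.1 ± 5.77 normalised TPM (SD, n = 3) and ranked 288 among all transcripts of the table by mean level, bip-1 ranked 466, bip-2 ranked 1351 and atf6 ranked 2787. bip-3a and bip-3b were near 1 normalised TPM, at ranks 18631 and 17069. From xbp1 to atf6, the ranges of neighbours in this order did not overlap in either group, whereas those of bip-3a and bip-3b overlapped in cct3A(RNAi) animals.

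Of the 5 members above the filter, xbp1, atf6 and bip-1 fell in cct3A(RNAi) planarians, and bip-2 and bip-3b did not pass the test. Over all tested transcripts 4.24% were called in either direction, 2.46% as lower and 1.78% as higher. The study had put xbp1, atf6 and bip-1 forward from these same libraries, so their direction here is not independent evidence, and their count is read as a description. The median log2 change of the 5 tested members was -0.28, against 0.0034 over all tested transcripts.

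xbp1, the transcription factor of the IRE1 branch, was at 500.7, 490.1 and 491.4 normalised TPM in the gfp(RNAi) libraries and at 376, 386 and 400.2 in the cct3A(RNAi) libraries. All 3 knockdown libraries lay below all controls, with a gap between the groups several times wider than the range of the controls. The mean decreased by 21.6% to 387.3 ± 12.2 (SD, n = 3), a log2 change of -0.35 (SE 0.035, 95% interval -0.43 to -0.27, adjusted p = 0.00789).

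atf6, the membrane-anchored transcription factor, stood at 46.92, 46.92 and 46.94 normalised TPM in controls and at 37.6, 38.0 and 38.3 after cct3A RNAi. The controls were closer to each other than those of any other member, with a coefficient of variation of 0.0213%, against 0.984% in the knockdown libraries. atf6 decreased by 19.1%, a log2 change of -0.30 (SE 0.029, 95% interval -0.37 to -0.23, adjusted p = 0.00692), where the SE comes from the spread that limma moderates across transcripts and not from these 3 controls alone.

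bip-1, the most abundant transcript for the ER HSP70, was at 283, 282 and 289 normalised TPM in gfp(RNAi) libraries and at 235, 231 and 239.6 in cct3A(RNAi) libraries. Its groups did not overlap either. The mean went from 284.7 ± 3.99 to 235.0 ± 4.41 (SD, n = 3), a decrease of 17.4% and a log2 change of -0.28 (SE 0.030, 95% interval -0.35 to -0.21, adjusted p = 0.0116). Among all tested transcripts, 16.1% were lower in every cct3A(RNAi) library than in every control, 15.8% were higher in every such library, and 31.9% did not overlap in either direction, so that lack of overlap alone was common in these data.

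These 3 calls did not hold in every fit. For xbp1, atf6 and bip-1 in this order, adjusted p was 0.0595, 0.0569 and 0.0694 when gfp(RNAi) replicate 1 was left out, 0.0566, 0.0567 and 0.0644 when gfp(RNAi) replicate 2 was left out, and 0.0536, 0.0522 and 0.0624 in limma with no variance trend. The calls of atf6 and bip-1 were also lost relative to dresden_comp5685_c0_seq1, a qPCR reference transcript of the study (0.0513 and 0.0515). Over 17 alternatives the log2 change stayed between -0.43 and -0.32 for xbp1, between -0.38 and -0.28 for atf6 and between -0.35 and -0.25 for bip-1.

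bip-2, the next bip transcript by level, was at 98.1, 95.8 and 99.3 normalised TPM in controls and at 93.3, 89.9 and 99.0 in cct3A(RNAi) libraries. Replicate 3 of the knockdown lay inside the range of the controls, and the other knockdown libraries lay below it. Its log2 change was -0.056 (SE 0.041, 95% interval -0.15 to 0.041, adjusted p = 0.435), an interval that leaves out the change estimated for bip-1. Across 17 alternatives bip-2 stayed above the threshold, with adjusted p from 0.0568, with each library rescaled to an equal sum, to 0.765 without cct3A(RNAi) replicate 2.

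The bip-3 transcripts were close to the lower end of what was tested. bip-3a was at 0.927, 0.820 and 1.01 normalised TPM in controls and at 0.783, 1.04 and 1.31 after cct3A RNAi, just under the filter, and without a filter its log2 change was 0.11 (SE 0.166, adjusted p = 0.761). bip-3b, just above the filter, was at 1.52, 1.03 and 1.29 in controls and at 1.01, 0.919 and 1.26 in cct3A(RNAi) libraries, a log2 change of -0.19 (SE 0.172, 95% interval -0.59 to 0.22, adjusted p = 0.539). Both overlapped between groups, and the interval of bip-3b is wide enough to include the change estimated for bip-1. The sum of bip-3a and bip-3b was 2.45, 1.85 and 2.30 in controls and 1.79, 1.96 and 2.57 in knockdown libraries. Whether reads were shared among the bip transcripts was not tested, and the authors' pseudo-alignment divides shared reads by an estimate.

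**Figure D1:**
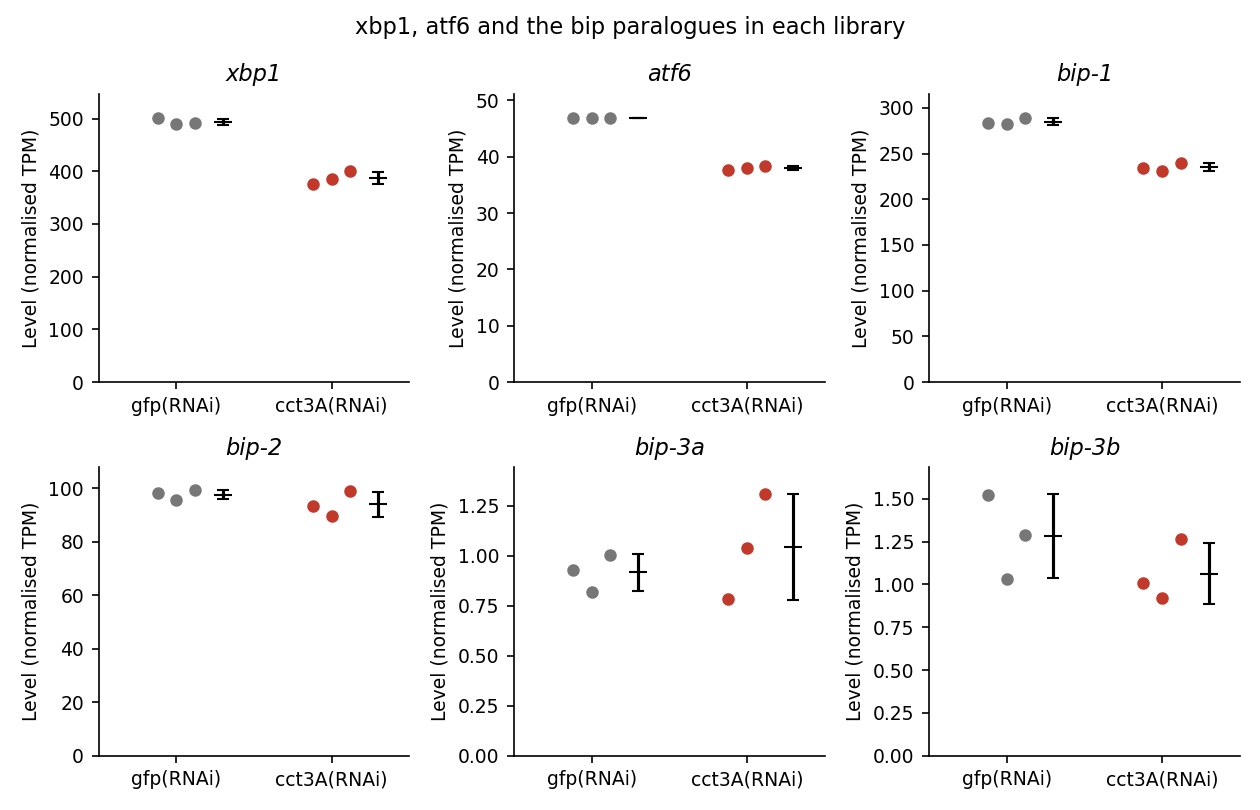
Level of xbp1, atf6, bip-1, bip-2, bip-3a and bip-3b in normalised TPM (y axis, from 0) in the 3 gfp(RNAi) libraries (grey) and the 3 cct3A(RNAi) libraries (red), replicates 1 to 3 from left to right, with black bars for mean and SD. xbp1, atf6 and bip-1 show separate groups, whereas bip-2 (89.9 to 99.0 against 95.8 to 99.3), bip-3a and bip-3b overlap.

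Within the cct3A(RNAi) group, replicate 3 was the highest library for each of the 6 members, from 0.939% above the group mean for atf6 and 5.28% for bip-2 to 25.5% for bip-3a. The same library had the largest summed value of the table, 1048450, against 1004960 and 1026500 in the other knockdown libraries. The part of this difference in the members' levels was not tested. Without this library, bip-2 was at -0.093 (adjusted p = 0.190) and xbp1, atf6 and bip-1 were still called.

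After cct3A RNAi the share of bip-1 in the summed bip level was lower and that of bip-2 higher, although the level of bip-2 itself did not rise. The 4 bip transcripts summed to 383, 379.6 and 391 normalised TPM in gfp(RNAi) libraries and to 329.8, 323 and 341 in cct3A(RNAi) libraries, a decrease of 13.9%. Within this sum bip-1 made up 73.8%, 74.3% and 74.01% in controls and 71.2%, 71.5% and 70.2% after cct3A RNAi. The share of bip-2 was 25.6%, 25.2% and 25.4% in controls and 28.3%, 27.9% and 29.0% after the knockdown.

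For both paralogues the shares of the groups did not overlap, and a share is not altered by a scaling factor common to a library. How common such a lack of overlap is for shares of other transcripts was not counted. The bip-1 share was 74.02% ± 0.258 in controls and 70.98% ± 0.679 in knockdown libraries (SD, n = 3), a difference of -3.04 percentage points (SE 0.419, exact two-sided permutation test, p = 0.10, adjusted 0.175 over 7 such tests). The bip-2 share was 25.4% ± 0.182 in controls and 28.4% ± 0.591 in knockdown libraries (SD, n = 3), a difference of 2.98 points (SE 0.357, exact permutation p = 0.10, adjusted 0.175). The shares of bip-1 and bip-2 nearly mirror each other, because little of the sum is left to bip-3a and bip-3b. Their tests are thus nearly the same comparison, and the 7 tests are not independent. With 3 libraries against 3 the exact test cannot give a p under 0.10. bip-3a (0.238% and 0.314%) and bip-3b (0.333% and 0.320%) together stayed below 1% of the sum in every library, and their shares overlapped between groups (exact permutation p = 0.30 and 0.80, n = 3 per group).

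The same difference can be read from the ratio of bip-2 to bip-1, which was 0.347, 0.340 and 0.343 in controls and 0.398, 0.389 and 0.413 in cct3A(RNAi) libraries. All knockdown ratios lay above all control ratios. The difference between the log2 changes of bip-2 and bip-1 was 0.22 (SE 0.033, 95% interval 0.14 to 0.30, limma adjusted p = 0.000805). It held in 15 of 15 alternatives, with values from 0.20 to 0.25 and adjusted p from 0.000478 to 0.0449. The largest adjusted p was for the same difference with bip-2 instead of bip-1 as the reference of the fit.

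The call between the bip paralogues is not particular to bip-2, because 62.9% of 18061 other transcripts also differed from bip-1 in the fit relative to bip-1. The study had drawn bip-1 from these libraries as a down-regulated transcript, and not bip-2, so the pair is not independent of the outcome.

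**Figure D2:**
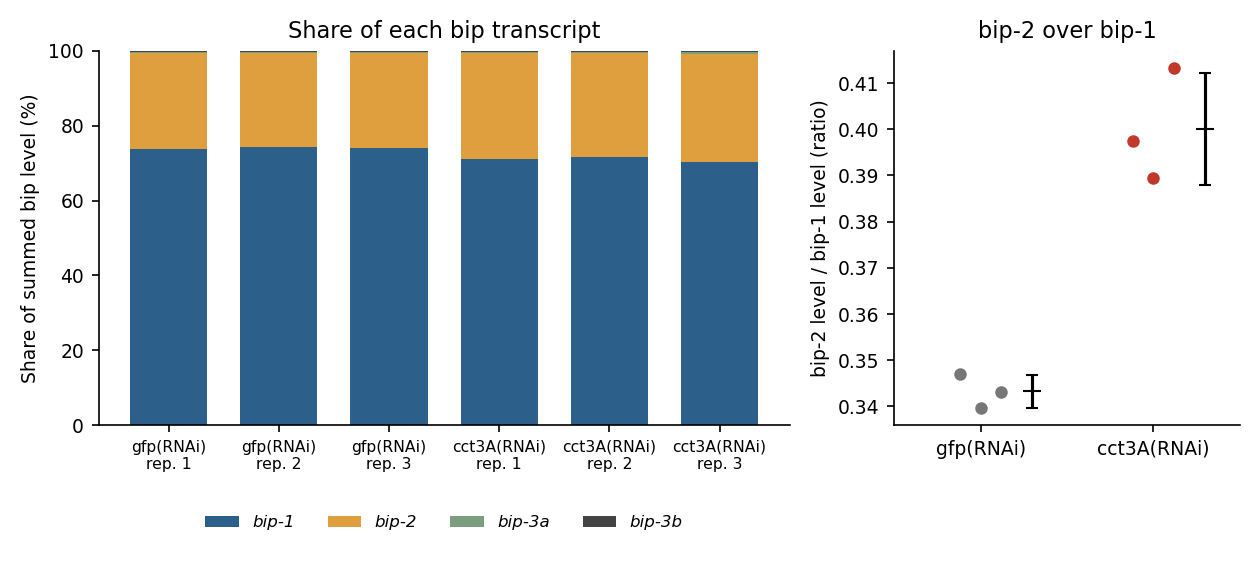
Left, share of the summed bip level (%, y axis) taken by bip-1, bip-2, bip-3a and bip-3b in each of the 6 libraries, as stacked bars. Right, ratio of the bip-2 level to the bip-1 level, with points for libraries and black bars for mean and SD on an axis that does not start at 0, where the knockdown libraries lie at 0.389 to 0.413 and the controls at 0.340 to 0.347.

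The transcription factors were then set against the summed level of the chaperone. xbp1 over summed bip was 1.31, 1.29 and 1.26 in gfp(RNAi) libraries and 1.14, 1.20 and 1.17 in cct3A(RNAi) libraries. atf6 over summed bip was 0.122, 0.124 and 0.120 in controls and 0.114, 0.118 and 0.112 after cct3A RNAi. Both ratios were lower in every knockdown library than in any control, and the mean ratio decreased by 8.96% for xbp1 and by 6.05% for atf6. How many other transcripts have such ratios without overlap was not counted, and for levels alone it was 31.9% of all tested transcripts.

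On the log2 scale the ratio of xbp1 to summed bip differed by -0.14 (SE 0.026, exact two-sided permutation p = 0.10, adjusted 0.175, n = 3 per group), and that of atf6 by -0.090 (SE 0.024, exact permutation p = 0.10, adjusted 0.175). These are the smallest p-values the design allows. Against bip-1 alone the estimates were smaller and not called. xbp1 minus bip-1 was -0.075 (SE 0.032, 95% interval -0.15 to -3.7e-05, limma adjusted p = 0.0746). Its ratios were 1.77, 1.74 and 1.70 in controls and 1.60, 1.67 and 1.67 in knockdown libraries, without overlap. atf6 minus bip-1 was -0.027 (SE 0.033, 95% interval -0.10 to 0.050, limma adjusted p = 0.497) with overlapping ratios. The fit relative to bip-1 called 62.9% of the other transcripts.

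Against bip-2 both factors stood lower. xbp1 was 5.10, 5.12 and 4.95 times bip-2 in controls and 4.03, 4.29 and 4.04 times bip-2 after cct3A RNAi, and atf6 was 0.478, 0.490 and 0.473 of bip-2 in controls and 0.403, 0.423 and 0.387 after the knockdown. Neither ratio overlapped between groups, and how many other transcripts have a ratio to bip-2 without overlap was not counted. The difference of log2 changes was -0.30 for xbp1 (SE 0.044, adjusted p = 0.0230) and -0.25 for atf6 (SE 0.052, adjusted p = 0.0524), in a fit relative to bip-2 that called 1.5% of the other transcripts.

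The ratio of xbp1 to atf6 overlapped between the groups. xbp1 was 10.7, 10.4 and 10.5 times atf6 in controls and 10.0, 10.2 and 10.4 times atf6 in knockdown libraries (difference of log2 ratios -0.045, SE 0.021, exact permutation p = 0.20, n = 3 per group). In limma the difference of their log2 changes was -0.048 (SE 0.032, 95% interval -0.12 to 0.026, adjusted p = 0.212), in a fit relative to atf6 that called 68% of the other transcripts. With quantile normalisation this pair was called (-0.097, adjusted p = 0.0346).

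Of the 6 pairs compared among xbp1, atf6, bip-1 and bip-2, those of bip-2 with bip-1 and of xbp1 with bip-2 were called. The adjusted p of a pair depends on which member serves as the reference of the fit, and with the other member as reference atf6 and bip-2 also differed (adjusted p = 0.000952). The pair of atf6 with bip-2, just above the threshold as reported, was called in 8 of 15 alternatives, with adjusted p from 0.000952 to 0.175 over all of them. The call of xbp1 with bip-2 did not hold when gfp(RNAi) replicate 1 (adjusted p = 0.0917), gfp(RNAi) replicate 2 (0.0941) or cct3A(RNAi) replicate 1 (0.0675) was left out, with no filter (0.0663) or with no variance trend (0.163).

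**Figure D3:**
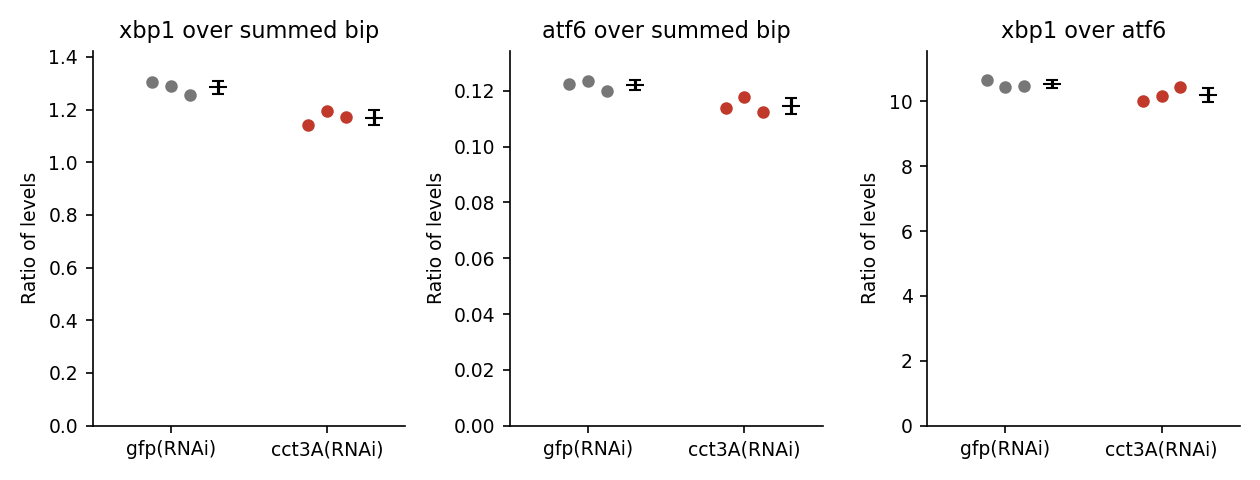
Ratios of levels (y axes, from 0) of xbp1 to summed bip, atf6 to summed bip and xbp1 to atf6 in the 3 gfp(RNAi) libraries (grey) and the 3 cct3A(RNAi) libraries (red), with black bars for mean and SD. The ratios to summed bip do not overlap between groups, at 1.14 to 1.20 against 1.26 to 1.31 for xbp1 and 0.112 to 0.118 against 0.120 to 0.124 for atf6, whereas the ratio of xbp1 to atf6 does.

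Over the 6 libraries, xbp1, atf6 and bip-1 were closely correlated with cct3A, whose level separates the 2 groups. Within the controls, cct3A was highest in replicate 3 and xbp1 in replicate 1. Among the named transcripts listed for this comparison, those most like xbp1 by Pearson r of log2 levels were atf6 (0.994), cct3A (0.989) and bip-1 (0.987). Those most like atf6 were cct3A (0.999), xbp1 (0.994) and calr (0.994), and those most like bip-1 were atf6 (0.992), cct3A (0.992) and calr (0.990). These correlations are over 6 libraries in 2 groups and describe mainly the difference between the groups, so they add no evidence to the calls above.

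bip-2 had other neighbours among the same named transcripts. It was most like both P4HB transcripts, which encode protein disulfide isomerases (comp13521, 0.914, and comp250, 0.887), and bip-3b (0.841). Over all tested transcripts bip-3b was only at rank 388 of 18061 by r with bip-2, and the top match of bip-2 there was not sought. Ordered by r with bip-1, atf6 was at rank 7 and xbp1 at rank 22 of 18061 transcripts, against rank 3695 for bip-2 and rank 4220 for bip-3b. Over all tested transcripts, dresden_comp7777_c0_seq1 was most like xbp1 (r = 0.9996, log2 change -0.39, adjusted p = 0.0116), and dresden_comp324_c0_seq1 was most like bip-1 (r = 0.994, log2 change -1.27, adjusted p = 5.55e-05). The gene tables used here give no name for either.

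Among the transcripts of 5 proteins that work directly with BiP, dnajb9 was called as higher and dnajc3 as lower. The call of dnajb9 held in none of 10 alternatives, and that of dnajc3 only with equal library sums and with quantile normalisation. dnajb9, a J-domain co-chaperone that in mammals represses IRE1 through BiP, was at 75.5, 82.2 and 82.7 normalised TPM in controls and at 93.0, 92.8 and 91.0 after cct3A RNAi, and rose by 0.20 (SE 0.041, adjusted p = 0.0441). dnajc3, a J-domain co-chaperone that feeds unfolded proteins to BiP, was at 30.3, 30.1 and 31.5 in controls and at 27.4, 26.6 and 27.1 in knockdown libraries, and fell by 0.18 (SE 0.035, adjusted p = 0.0434). Neither overlapped between groups, as was the case for 31.9% of all tested transcripts.

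The nucleotide exchange factors of BiP, HYOU1 (-0.14, adjusted p = 0.0613) and SIL1 (-0.14, adjusted p = 0.192), and the co-chaperone dnajb11 (-0.12, adjusted p = 0.0903) did not pass. Of the 5 BiP partners 1 fell and 1 rose, where 2.46% of all tested transcripts were called lower and 1.78% higher, and their median log2 change was -0.14. The study had picked dnajb9, dnajb11 and dnajc3 on these libraries, so their direction is not independent evidence. Both calls were lost in each of the 6 fits without 1 library, where limma called 0 partners and 3 or 4 fell and 1 rose at an unadjusted p under 0.05. The calls of dnajb9 (adjusted p = 0.0621) and dnajc3 (0.0664) were also lost with the replicate number as a block. With no filter they were lost too (limma adjusted p = 0.0609 and 0.0582). The call of dnajb9 was lost as well with equal library sums (limma adjusted p = 0.106) and with quantile normalisation (0.0526), where dnajc3 was still called.

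Among 14 other ER folding factors, 4 fell, against 2.46% of all tested transcripts, and the median log2 change was -0.11. Those were calr, the calcium-binding lectin chaperone calreticulin (-0.27, adjusted p = 0.0124), HSP90B1, the HSP90 of the ER (-0.24, adjusted p = 0.0281), and the protein disulfide isomerase family transcripts pdia13 (-0.26, adjusted p = 0.0289) and pdia3 (-0.75, adjusted p = 0.0415). calr was at 431, 432 and 444 normalised TPM in controls and at 354, 364 and 364 in knockdown libraries, with no overlap. The study had picked calr, pdia13 and pdia3 from these libraries, and HSP90B1 came from its starvation tables. limma called none of the 14 without gfp(RNAi) replicate 1 or gfp(RNAi) replicate 2 (6 and 7 fell at an unadjusted p under 0.05), 1 without gfp(RNAi) replicate 3, cct3A(RNAi) replicate 1 or cct3A(RNAi) replicate 3, and 3 without cct3A(RNAi) replicate 2.

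The named relatives of BiP outside the ER, most of them picked by the study on these libraries, were higher after cct3A RNAi. All 7 named HSP70 transcripts were higher in every cct3A(RNAi) library than in any control, as were 15.8% of all tested transcripts, and 4 of them rose, against 1.78% of all tested transcripts. These were 3 transcripts annotated as HSPA8, the constitutive cytosolic HSP70 (comp320 by 0.46, adjusted p = 0.0106, comp1332 by 0.50, adjusted p = 0.00687, and comp1459 by 0.49, adjusted p = 0.00382), and HSPA4L, a relative of the HSP110 family (0.19, adjusted p = 0.0422). HSPA8 comp2221 (0.15, adjusted p = 0.0563), HSPA8 comp19414 (0.29, adjusted p = 0.196) and the mitochondrial HSPA9 (0.19, adjusted p = 0.0578) did not pass.

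The most abundant of the cytosolic transcripts, HSPA8 comp320, was at 509, 521 and 558 normalised TPM in controls and at 761, 703 and 718 after cct3A RNAi. The median log2 change of the 7 was 0.29, and the sign of each held with equal library sums and with quantile normalisation. The call of HSPA4L was lost with equal sums (adjusted p = 0.104), with quantile normalisation (0.0571) and with the replicate block (0.0598). The study had picked 6 of the 7 on these libraries, the 4 called among them, so their direction and count are not independent evidence. Without gfp(RNAi) replicate 1 the count that rose was 1, and without gfp(RNAi) replicate 2 it was 2. How reads were divided among the HSPA8 transcripts was not tested.

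The wider ER stress term of the study held 17 further transcripts besides bip-1 and bip-2, of which 2 fell (HSP90B1 and dnajc3, also counted above), 1 rose and 7 were below 0, with a median log2 change of 0.021. Over all 18062 tested transcripts, 2.46% were called lower, 1.78% were called higher and 8870 were below 0. The transcript that rose, dresden_comp5406_c0_seq1, has no name in the tables used and was singled out after its values were seen. It was at 23.6, 23.6 and 25.3 normalised TPM in controls and at 46.4, 49.3 and 57.5 in knockdown libraries (log2 change 1.06, SE 0.076, adjusted p = 0.00340). No fit without 1 library called more than 1 of the 17 as lower.

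**Figure D4:**
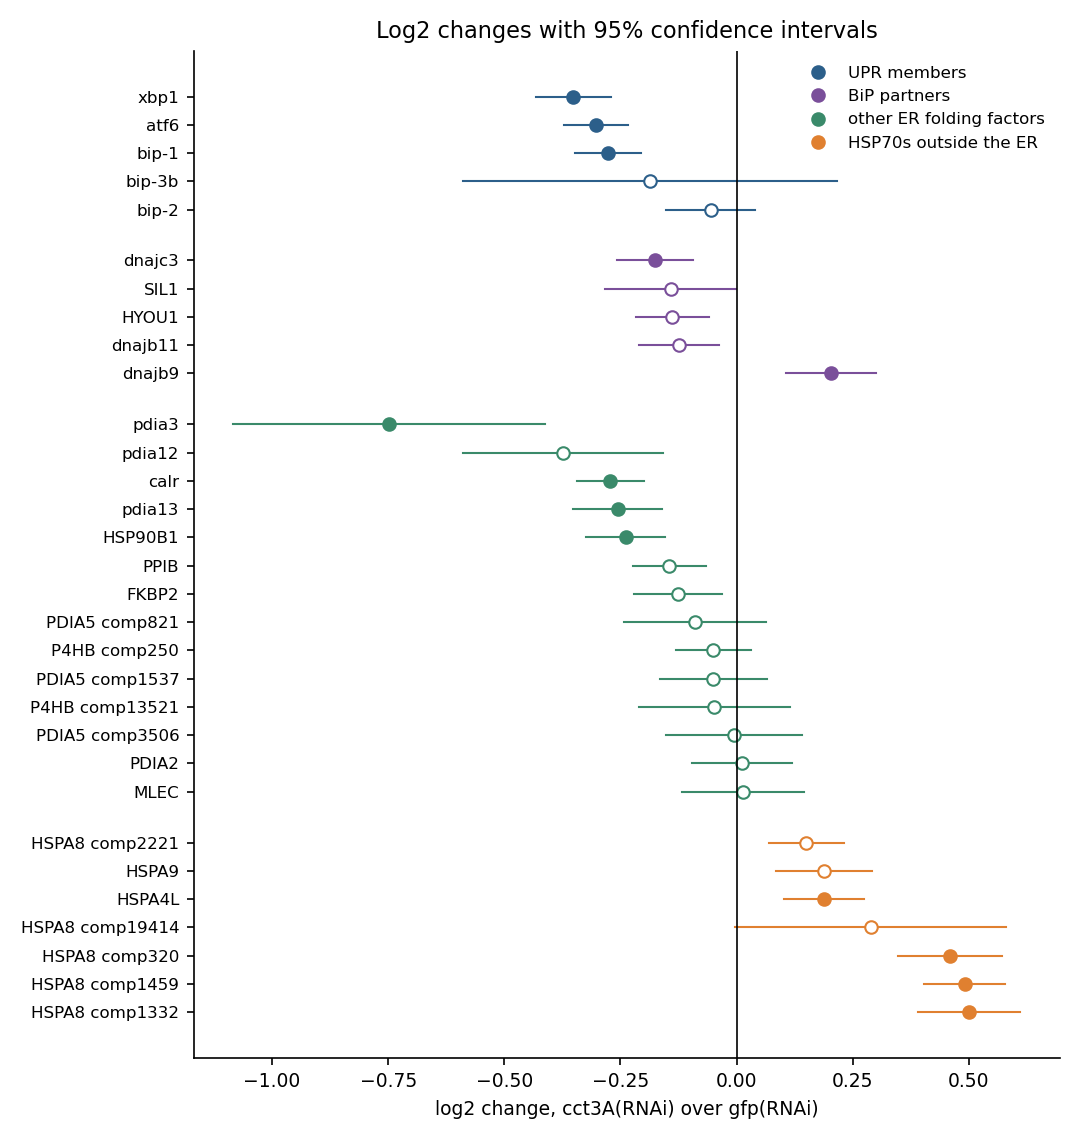
Log2 change of cct3A(RNAi) over gfp(RNAi) (x axis) with 95% confidence intervals for the 5 tested members, 5 BiP partners, 14 other ER folding factors and 7 HSP70 transcripts outside the ER. Filled points passed the threshold of 0.05 after adjustment over all tested transcripts and open points did not, and xbp1, atf6 and bip-1 lie between -0.35 and -0.28 whereas the HSP70 transcripts outside the ER lie between 0.15 and 0.50.

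**Figure D5:**
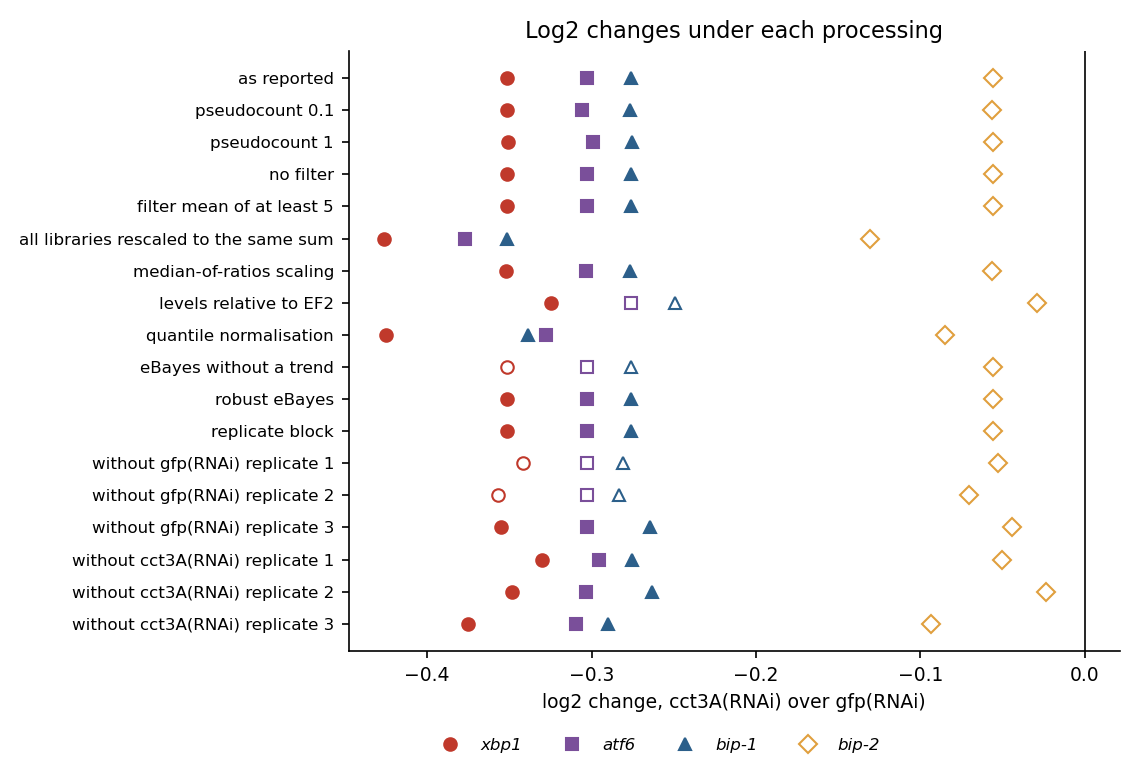
Log2 change of xbp1, atf6, bip-1 and bip-2 (x axis) as reported and under each of 17 alternatives (y axis), with filled points for an adjusted p under 0.05. The row labelled EF2 gives levels relative to dresden_comp5685_c0_seq1. The changes of xbp1, atf6 and bip-1 lie below that of bip-2 under every alternative drawn, and their points turn open for all 3 in the rows that leave out replicate 1 or replicate 2 of gfp(RNAi) and in the row with no variance trend.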

How the data were processed

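RNA-seq of 3 gfp(RNAi) and 3 cct3A(RNAi) libraries of 5 trunks each at 72hR was analysed, with groups from the sample titles. The deposited values are a normalised signal: the authors used kallisto to pseudo-align reads to the Dresden transcriptome (the submitters' processing notes give version 0.43.0) and divided TPM by a size factor per library with sleuth. They are no counts, and the study gives a read number only for all libraries together, so no counting interval is given. The planned test assumed normalised TPM and was kept. 0 columns were left unassigned, and 0 pairs of libraries were identical.

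Values were tested as log2(value + 0.5), which understates changes of low transcripts, with limma (version 3.58.1, R 4.3.3, eBayes with a trend, two-sided) over 18062 transcripts with a mean of at least 1 and Benjamini-Hochberg adjustment at 0.05. For pairs, the log2 level of the reference was subtracted in each library before the fit. Shares and ratios to summed bip were compared with exact permutation tests. The fit was tested on simulated data.

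Members and lists were chosen with earlier results of these data known. Named were the 6 members, cct3A, the reference transcript dresden_comp5685_c0_seq1, all BiP partners and HSP70s, and the 4 other ER folding factors with the smallest p. The most alike were the 3 listed transcripts with the highest r, and over all transcripts the top match of xbp1 and of bip-1. Alternatives were the pseudocount (0.1, 1), the filter (none, 5), scaling, the variance model, a replicate block, each library left out in turn and, added after seeing the data, the other member of a pair as reference.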

Additional observations from a re-analysis of the deposited data

How the results depend on the processing

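Each of the 5 tested members kept the sign of its log2 change in every alternative run. The number of members that fell was 1 relative to dresden_comp5685_c0_seq1 and 0 without a variance trend, and 0 to 3 with 1 library left out (at 0, limma gave 3 at an unadjusted p under 0.05). The number of all transcripts called was 766 as reported, 314 with no filter, 1284 with a filter at 5, 1259 after rescaling to equal sums, 106 relative to dresden_comp5685_c0_seq1, 33 without a trend and 24 to 489 with 1 library left out. BiP partners that fell numbered 0 with no filter, 3 with equal sums, 2 with quantile normalisation and 0 to 0 with 1 library left out, and those that rose 0 in each of these (at 0, 3 or 4 fell and 1 rose at an unadjusted p under 0.05). Of the ER stress term 1 fell with no filter, 5 after rescaling and 0 to 1 with 1 library left out. Other ER folding factors that fell numbered 0 to 3, and HSP70s outside the ER that rose 1 to 3, with 1 library left out. Pairs called numbered 1 with no filter, 1 without a trend, 4 after quantile normalisation and 1 to 3 with 1 library left out. The cause of these differences was not tested, beyond the fewer libraries or the other number of transcripts in the fit.

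Signs changed for values that were not called: MLEC was at -0.061 after rescaling and -0.013 after quantile normalisation, PDIA2 at -0.064 and -0.047, and atf6 minus bip-1 at 0.011 after quantile normalisation, which also moved the log2 ratio of xbp1 to atf6 to -0.094. Equally numbered libraries correlated at 0.0484, 0.102 and 0.0472 in their departures from the group means, so the numbers were not taken as pairs, although each library correlated best with its own number. With the replicate block 3 members fell, 660 transcripts were called, BiP partners that fell and rose numbered 0 and 0 (4 and 1 at an unadjusted p under 0.05 in limma), and 1 of the ER stress term fell. The bip-1 share moved between -3.54 and -2.67 percentage points over 9 alternatives. With no read counts, the precision of bip-3a and bip-3b near 1 normalised TPM rests on 3 libraries a group.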

Other observations

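A comparison chosen after the values had been seen set the bip transcripts against all named HSP70 transcripts. The 7 HSP70 transcripts outside the ER summed to 1642, 1606 and 1698 normalised TPM in gfp(RNAi) libraries and to 2186, 2038 and 2100.5 in cct3A(RNAi) libraries. The 4 bip transcripts made up 18.9%, 19.1% and 18.7% of all named HSP70 level in controls and 13.1%, 13.7% and 14.0% after cct3A RNAi, with no overlap between groups. The value is a description without a test, since most of these transcripts had been picked by the study on the same libraries.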
